A study of Homo sapiens with 4 samples.

Results

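TXNIP, the other alpha-arrestin genes ARRDC1, ARRDC2, ARRDC3 and ARRDC4, and the transcription factor genes MLX and MLXIP were followed in myeloma cells exposed to OSSL_325096. The 7 genes were taken by name from the 57773 genes of the authors' deposited table. TXNIP was chosen by its fold change in this table, which was among the lowest, and the others as its relatives or as factors that control it. The values below therefore describe the members and test nothing about them. RNA was sequenced from KMS12PE and KMS11, established human lines of multiple myeloma, a cancer of plasma cells. Each line received DMSO, the solvent, or OSSL_325096 at 1 µM; only the code name of the compound is used here. A treatment was thus represented by 2 of the 4 libraries, and these came from different lines. The authors' deposited table compares the treatments over both lines together. Single libraries are not analysed here, and their depth and the length of the exposure are unknown.

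TXNIP, the thioredoxin-interacting protein, binds and inhibits thioredoxin and is an alpha-arrestin. Proteins of this family act as adaptors that bring ubiquitin ligases of the NEDD4 family to membrane proteins, and TXNIP and ARRDC4 are known to reduce glucose uptake by acting on glucose transporters. MLXIP, also called MondoA, and its relative MLXIPL, also called ChREBP, pair with MLX and enter the nucleus when phosphorylated glucose accumulates. There they bind carbohydrate response elements, and TXNIP and ARRDC4 are among the best known genes under the control of MLXIP. TXNIP is in this way a common readout of how much glucose a cell has taken up and phosphorylated.

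The stretch in front of TXNIP holds the sequences through which this control is known to work, so it is shown before the values, with that of ARRDC4 for comparison. Both are RefSeq promoter sequences, which were found without a mismatch in GRCh37 (hg19), and both lie on the forward strand. The TXNIP stretch is chr1:145438240-145438468 and ends where the gene starts in the authors' deposited table. The ARRDC4 stretch is chr15:98503683-98503932 and ends at the RefSeq start site. In the authors' deposited table ARRDC4 starts 41149 bases further upstream, so this stretch lies inside the gene as listed there. Capitals mark the carbohydrate response element (CACGNG, any 5 bases, CACGNG), the E-box (CACGTG), the CCAAT box (CCAAT) bound by the factor NF-Y, and the forkhead motif (GTAAACA) bound by FOXO factors, on either strand.
TXNIP: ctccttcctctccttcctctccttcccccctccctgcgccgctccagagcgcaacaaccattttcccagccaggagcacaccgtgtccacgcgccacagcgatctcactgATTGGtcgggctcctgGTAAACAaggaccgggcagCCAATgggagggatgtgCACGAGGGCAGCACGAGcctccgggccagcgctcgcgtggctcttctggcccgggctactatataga
ARRDC4: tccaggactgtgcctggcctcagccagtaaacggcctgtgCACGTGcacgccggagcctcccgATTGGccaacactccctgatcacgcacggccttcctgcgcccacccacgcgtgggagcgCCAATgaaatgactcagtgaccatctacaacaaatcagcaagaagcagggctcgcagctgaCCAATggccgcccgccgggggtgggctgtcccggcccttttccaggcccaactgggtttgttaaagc

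TXNIP holds 1 match to the carbohydrate response element, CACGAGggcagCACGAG, at chr1:145438402-145438418 (hg19), from 88 to 72 bases before its RefSeq start site. The capitals there are the paired cores, which are variants of the E-box. This motif was written with the known TXNIP element in view, so the match itself is no finding. Among 35116 RefSeq windows of 250 bases before a start site, 16 (0.0456%) hold the motif. CCAAT boxes flank a forkhead motif in TXNIP at 140 and 105 bases before the start site, and the forkhead motif lies at 124 bases. ARRDC4 has an E-box at 210 bases before its start site and 3 CCAAT boxes, and no match to the full element as spelled. MLX has an E-box at 50 bases before its start site. The E-box occurs in 6.34% of all windows, the CCAAT box in 32% and the forkhead motif in 2.98%. The heat shock element (GAANNTTC), in 5.78% of windows, had no match in the windows of the 7 members. A match is a description of the letters, and no binding was measured.

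**Figure D1:**
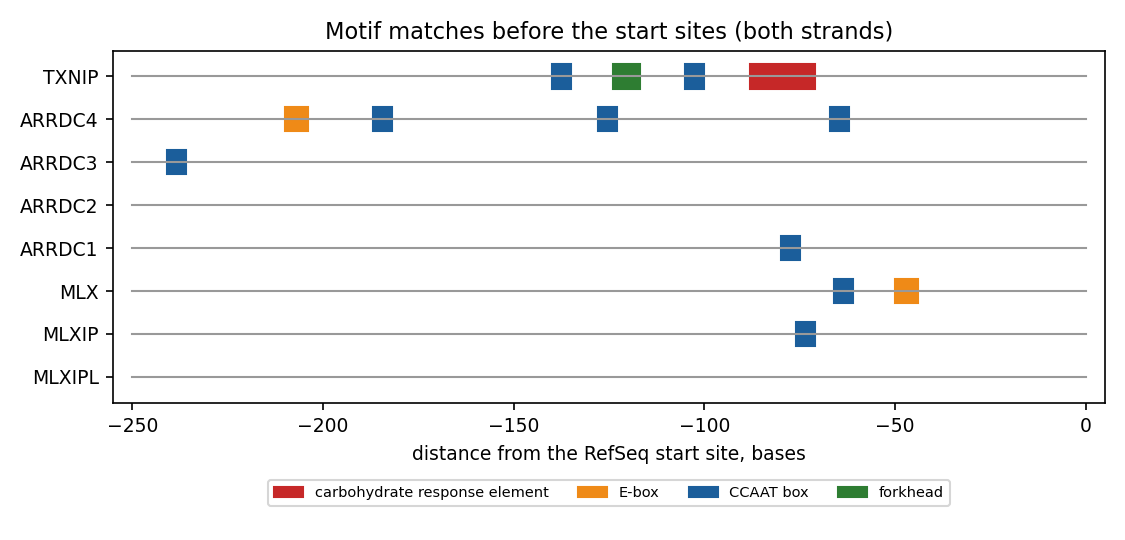
Motif matches on either strand in the 250 bases before the RefSeq start site (0 on the horizontal axis, in bases) of the 7 members and MLXIPL. TXNIP alone among these 8 windows matches the carbohydrate response element as spelled, from 88 to 72 bases before the start site. The motif was written with the known TXNIP element in view, so this match is no finding. ARRDC4 and MLX show an E-box, and single cores (CACGNG) are not drawn.

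TXNIP had the lowest fold change of the members. It lies on chromosome 1 from 145438469 to 145442635 (hg19, forward strand), and its group mean in the authors' deposited table was 22.3 RPKM. RPKM counts reads per kilobase of transcript, scaled to library size, and the table gives it only for the treatment group with the higher mean. TXNIP was 3.35-fold lower with OSSL_325096 in the authors' deposited table, or -1.74 on the log2 scale. The implied standard error was 1.07, computed from the deposited p-value as if it came from a 2-sided normal test. The 95% interval that follows runs from -3.84 to 0.35 on the log2 scale, from 14.3-fold lower to 1.27-fold higher. By this error the size of the difference is poorly fixed, and no change lies inside the interval. Whether the comparison paired the treatments within each line is unknown, so the error may hold differences between the lines. Over genes of at least 1 RPKM the median implied SE was 1.10, while the quartiles of the log2 fold changes were -0.21 and 0.22. The implied SE is thus no direct measure of the spread of these fold changes.

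The alpha-arrestins other than TXNIP had fold changes near 1 where their group mean was at least 1 RPKM. ARRDC1, known for the release of small vesicles from the cell surface, stood at log2 0.17 (implied SE 0.96) at 10.9 RPKM in the authors' deposited table. ARRDC2, a less studied member of the family, had 0.35 (implied SE 1.03) at 7.81 RPKM there, a 1.27-fold difference. ARRDC3, which regulates beta-adrenergic receptors and integrins, had -0.23 (implied SE 1.20) at 6.03 RPKM in the authors' deposited table. These 3 genes lie on chromosomes 9, 19 and 5. None of them was 1.5-fold from 1, and they did not share a direction. Their intervals ran from -1.72 to 2.06, from -1.68 to 2.38 and from -2.59 to 2.13. Each still holds a 2-fold difference in either direction.

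ARRDC4, the member known to share its glucose control with TXNIP, was barely measured. Its group mean was 0.128 RPKM in the authors' deposited table, below the minimum of 1 RPKM used here. Its log2 fold change of -1.33 there had the sign of that of TXNIP, with an implied SE of 1.81 and an interval from -4.87 to 2.22. At this level such a value is common. Of 3683 other genes within 2-fold of the level of ARRDC4, 24.5% were lower by 2-fold or more and 23.6% higher by as much, and 21.9% were as low as ARRDC4 or lower. The RPKM of ARRDC4 also depends on the transcript length used, and the table's gene model begins far upstream of the RefSeq start site.

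The transcription factors had the fold changes closest to 1. MLX, the shared partner, stood at log2 0.11 (implied SE 0.95) at 13.5 RPKM in the authors' deposited table. MLXIP, the glucose-sensing partner, had 0.04 (implied SE 1.04) at 3.86 RPKM there. MLXIPL, the other glucose-sensing partner and mainly a factor of liver and fat, was at 0.0189 RPKM in the authors' deposited table, so that MLXIP was the only one of these partners above 1 RPKM. The intervals of MLX and MLXIP, from -1.76 to 1.98 and from -1.99 to 2.08, still hold a 2-fold difference in either direction.

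**Figure D2:**
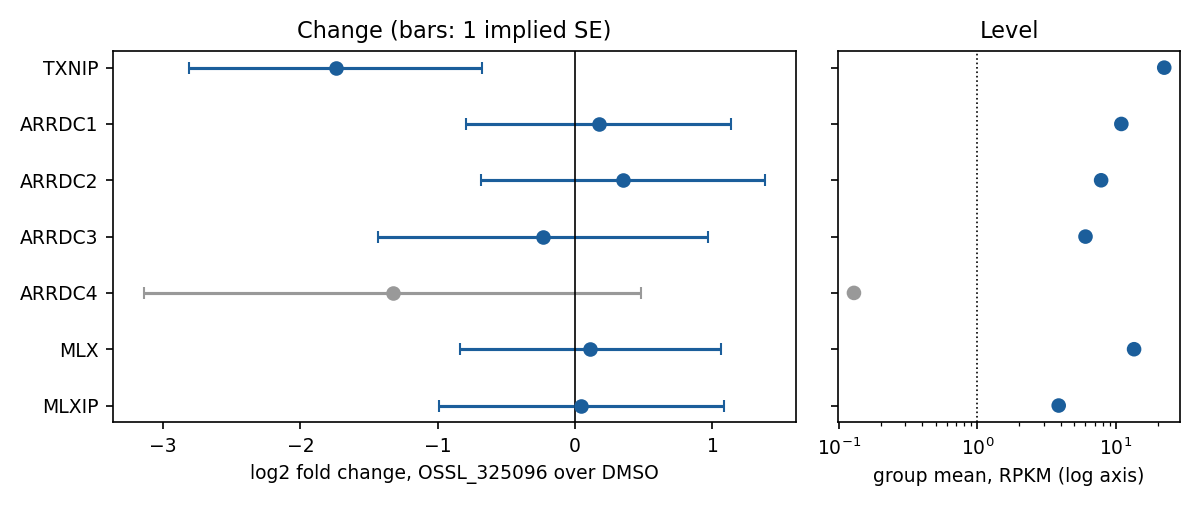
Left, log2 ratio of OSSL_325096 to DMSO for each member (points) with 1 implied SE (bars). Right, the mean RPKM of the group with the higher mean, on a log axis with 1 RPKM dotted. TXNIP stands at -1.74, ARRDC4 (grey, 0.128 RPKM) at -1.33, and the others between -0.23 and 0.35.

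By level per transcript length, TXNIP was the highest of the members, followed by MLX, ARRDC1, ARRDC2, ARRDC3, MLXIP and ARRDC4. The table gives no spread of these levels, so neighbours in this order cannot be called different. At 22.3 RPKM TXNIP was above 90.7% of the 23130 genes with a fold change, and MLXIP at 3.86 RPKM was above 66.9%. ARRDC5, the remaining alpha-arrestin gene, was at 0.194 RPKM and log2 -0.14 in the authors' deposited table. Among the other arrestins, ARRB2, a beta-arrestin that switches off G protein-coupled receptors, had 0.26 (implied SE 1.05) at 9.21 RPKM there. ARRB1 was at 0.0828 RPKM and the visual arrestin gene SAG at 0.0109 RPKM in the authors' deposited table, and ARR3 is listed there at 0.

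Of the 7 members 6 had a group mean of at least 1 RPKM, and 4 of these were above 0 and 2 below. Their median log2 fold change was 0.08, beside 0.01 over all 11324 genes of at least 1 RPKM. TXNIP was the only 1 of the 6 that was at least 2-fold lower, where 1.09% of all genes were. At least 1.5-fold lower was again TXNIP alone, against 4.95% of all genes, and 0 of the 6 were at least 1.5-fold higher, against 4.95%, or 2-fold higher, against 0.989%. The rule used this contrast, so these counts describe the choice. With no minimum on RPKM, TXNIP and ARRDC4 were at least 2-fold lower, where 12.1% of the 23130 genes were. At least 1.5-fold lower were the same 2 members and 18% of the 23130 genes. None of the members, and 0% of the 11324 genes, passed a Benjamini-Hochberg adjusted p of 0.05 recomputed from the deposited p-values. An unadjusted deposited p-value under 0.05 was given to 5 of these genes (0.0442%) and to 0 members.

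Each other member was set against TXNIP in the same table. TXNIP minus ARRDC3 was -1.51 on the log2 scale, with a combined standard error of 1.61, and TXNIP minus ARRDC2 was -2.09, with 1.49. Against ARRDC1, MLX and MLXIP the differences were -1.92, -1.86 and -1.79, with combined standard errors of 1.44, 1.43 and 1.49. The difference from ARRDC4 was -0.42, with 2.10. Genes share the 4 libraries, so these combined errors, which treat genes as independent, are approximate. TXNIP was chosen by its low value in this same contrast, so the sign of these differences describes that choice and tests nothing.

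TXNIP, chosen by its low value, stood among the lowest genes of at least 1 RPKM, both over all of these and at its own level. Its ranks describe that choice. Of the 11324 genes of at least 1 RPKM, 20 (0.177%) were lower. Among the 6711 genes of at least 5 RPKM it was the 7th lowest, and of the 2158 genes with a group mean at least as high as its own, 1 was lower. Of 2988 other genes within 2-fold of its level, 2 were as low or lower, and the middle 50% of these lay between -0.12 and 0.28. Next below TXNIP, among genes of at least 5 RPKM, were PLEK (-1.85), CTH (-2.07) and RP11-168O16.1 (-2.25) in the authors' deposited table. PLEK encodes pleckstrin, found in blood cells, and CTH makes cysteine from cystathionine. Next above it were the steroid sulfatase gene STS (-1.51), CTD-2529O21.1 (-1.39) and RPS17L (-1.38) in the authors' deposited table. The implied SE of TXNIP was close to the median of 1.10 over genes of at least 1 RPKM, with 47.1% of them having a smaller one. The genes nearest to it in level had a median implied SE of 0.94.

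**Figure D3:**
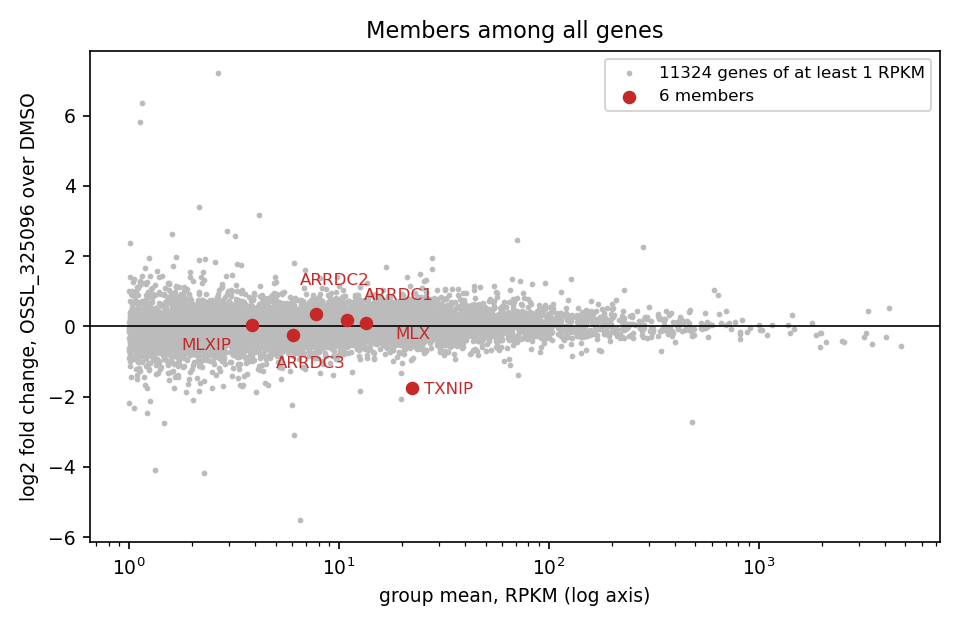
Log2 ratio of OSSL_325096 to DMSO (vertical axis) against the mean RPKM of the group with the higher mean (horizontal log axis) for 11324 genes (grey) and the 6 members of at least 1 RPKM (red). TXNIP, at 22.3 RPKM and -1.74, lies below nearly all genes of its level, and the other 5 lie within the bulk.

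The genes nearest to TXNIP on the chromosome were set beside it. Of 10 genes within 70 kb in the authors' deposited table, 6 were at least 1 RPKM, and their log2 fold changes ran from -0.08 to 0.34. POLR3GL, an RNA polymerase III subunit gene whose nearer end lies 13601 bases from TXNIP, had 0.14 (implied SE 1.02) at 20.2 RPKM in the authors' deposited table. LIX1L had 0.01 (implied SE 0.86) at 27.0 RPKM and RBM8A, an exon junction complex gene, 0.12 (implied SE 0.94) at 47.5 RPKM there. HFE2, the hemojuvelin gene on the other side, is at 0 in the authors' deposited table. No gene of the table overlaps TXNIP.

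**Figure D4:**
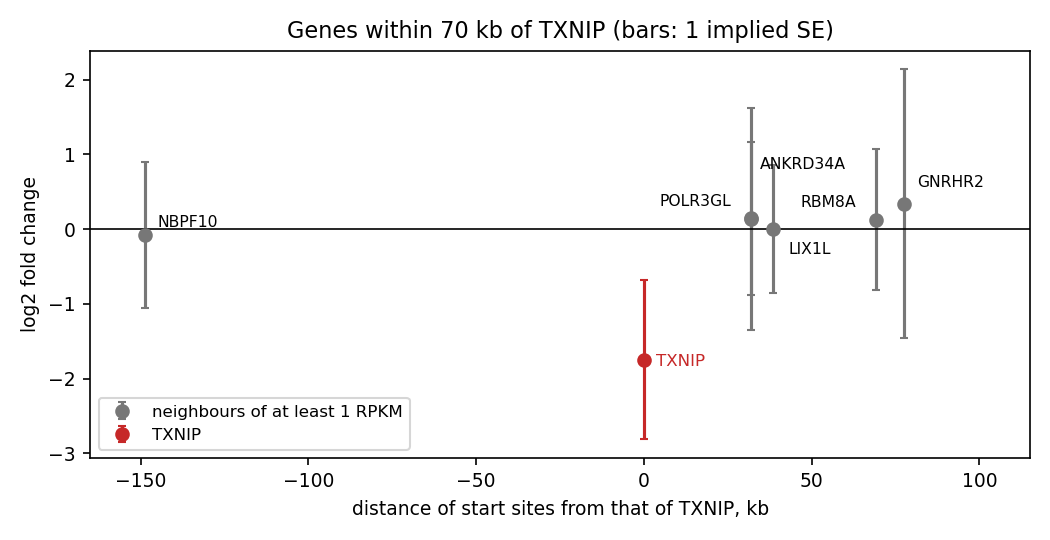
Log2 fold change (vertical axis, bars 1 implied SE) of TXNIP (red) and of the 6 genes of at least 1 RPKM that lie at least in part within 70 kb of it (grey), by the distance between start sites in kb. The neighbours stand between -0.08 and 0.34, with the points of POLR3GL and ANKRD34A on top of each other, and TXNIP at -1.74.

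Overlaps touch 2 other members, and the counting is not stated to use strand. The last 29 bases of ARRDC1 overlap C9orf37, now ARRDC1-AS1, on the other strand, which had -0.05 in the authors' deposited table. MLX shares 925 bases with PSMC3IP, a meiotic recombination gene on the other strand, which had -0.54 (implied SE 1.15) at 12.0 RPKM there. If strand was not used, reads in these stretches cannot be told apart, and the values of MLX and ARRDC1 are uncertain to that extent.

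Other genes with the carbohydrate response element in the 250 bases before a start site were then described. All 16 were matched to the authors' deposited table and 13 were at least 1 RPKM, 12 of them besides TXNIP. Of these 12, 7 were below 0 and 5 above, with a median of -0.16, beside 0.01 over the 8764 genes of at least 1 RPKM whose windows lack the motif. GFPT1, the enzyme that opens the hexosamine branch of glucose metabolism, had -0.72 (implied SE 0.87) at 17.5 RPKM in the authors' deposited table. HPF1, a partner of PARP enzymes listed as C4orf27, had -0.67 (implied SE 1.24), and P4HA1, a collagen prolyl hydroxylase gene, had -0.51 (implied SE 1.17) there. At the other end were KCTD5 at 0.54 (implied SE 0.93) and ATP5ME, listed as ATP5I, at 0.32 (implied SE 0.97) in the authors' deposited table. Every one of these values lay within 1 implied SE of 0. Transcript GC content had a median of 46.9% in these 12 genes and 49.9% in the genes without the motif. Across 11188 genes, which are not independent replicates, the fold change and transcript GC content had a Spearman correlation of 0.47. After a trend with transcript GC content, length and level was removed, the median of the 12 was -0.05 and that of the genes without the motif 0.01. The part of GC content in these values was not tested further.

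Genes that work with the members were taken as 9 lists of 97 genes, of which 68 were at least 1 RPKM. Of the 68, 35 were above 0 and 33 below, with a median of 0.05. At least 1.5-fold higher were 5 (7.35%) and at least 1.5-fold lower 4 (5.88%), beside 4.95% of all genes in each direction. None of the 68 passed the adjusted p of 0.05. As low as TXNIP were 0, the lowest being -0.86, where 0.177% of all genes of at least 1 RPKM were lower than TXNIP. TXNIP was chosen by its low value, so this count describes the choice.

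The thioredoxin system, which TXNIP inhibits, lay close to 0. Of 13 measured genes 6 were above 0 and 7 below, with a median of 0.00, and 0 were 1.5-fold from 1. TXN, the thioredoxin that TXNIP binds, had -0.09 (implied SE 0.91) at 174 RPKM in the authors' deposited table. SRXN1, the sulfiredoxin that repairs peroxiredoxins, had 0.49 (implied SE 0.96), TXNRD1, the cytosolic thioredoxin reductase, -0.36 (implied SE 0.98), and TXNRD2, the mitochondrial one, 0.28 (implied SE 1.00) there. PRDX3, the mitochondrial peroxiredoxin, had -0.15 in the authors' deposited table.

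Of 8 measured genes of glucose uptake and phosphorylation 7 were above 0, where 51.0% of all genes were, with a median of 0.28. With a trend in transcript GC content, length and level removed, that median was 0.18. At least 1.5-fold higher were 2 of the 8, beside 4.95% of all genes. The 2 were the glucose transporter genes SLC2A6 (0.74, implied SE 1.86) and SLC2A4 (0.66, implied SE 1.89) in the authors' deposited table. After a trend with transcript GC content, length and level was removed they stood at 0.50 and 0.53, both under 1.5-fold. HK2, an inducible hexokinase, had 0.46 (implied SE 0.88) at 21.5 RPKM there, and SLC2A5, a fructose transporter gene, had -0.35 (implied SE 1.86). SLC2A1, the GLUT1 gene whose product TXNIP is known to act on, had 0.17 (implied SE 1.13) at 8.66 RPKM in the authors' deposited table. Over all 16 listed genes with a fold change, without a minimum, the median was -0.04.

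Textbook targets of ChREBP outside the arrestins had no common direction. Of 6 measured genes 3 were above 0 and 3 below, with a median of 0.17. FASN, the fatty acid synthase gene, had 1.22 (implied SE 1.02) at 95.7 RPKM in the authors' deposited table, and ACACA, which makes its substrate, had 0.46 (implied SE 0.94). SCD, a desaturase gene, had 0.37 (implied SE 1.09), and KLF10, a glucose-responsive repressor gene, -0.15 (implied SE 1.08) there. Several of these lipid genes also answer to sterol-regulated factors. Without a minimum on RPKM the median over the list's 11 genes was -0.12.

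The wider MYC and MLX network held 9 measured genes outside the members, 4 above 0 and 5 below, with a median of -0.04 and 0 of them 1.5-fold from 1. MYCN had 0.47 (implied SE 1.62), MXD1, a MAX partner that opposes MYC, -0.43 (implied SE 1.24), MXD3 0.37 (implied SE 1.02) and MYC 0.31 (implied SE 1.03, 373 RPKM) in the authors' deposited table. The NEDD4 family ligases, which alpha-arrestins recruit, had a median of -0.11 over 7 genes, 3 above 0 and 4 below. That median changed sign, to 0.06 with the same kind of trend removed and to 0.17 at a minimum of 5 RPKM. SMURF2 had -0.32 (implied SE 1.34), WWP1 0.31 (implied SE 1.13), NEDD4 -0.27 (implied SE 1.33) and ITCH, the ligase known to mark TXNIP itself for degradation, -0.26 (implied SE 0.89) in the authors' deposited table.

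Genes of energy and growth sensing lay on both sides of 0. AMPK, the kinase of energy shortage that phosphorylates TXNIP, had 5 measured genes with its activator, 2 above 0 and 3 below, with a median of -0.18. That median was -0.05 after a trend with transcript GC content, length and level was removed. The AMPK subunit gene PRKAB2 had -0.48 (implied SE 1.02) and PRKAA1, a catalytic subunit gene, -0.23 (implied SE 1.04) in the authors' deposited table. The activator gene STK11 had 0.42 (implied SE 0.88) and PRKAG1 -0.18 (implied SE 1.15) there. FOXO factors and their textbook targets had 12 measured genes, 6 above 0 and 6 below, of which 2 were higher and 3 lower by 1.5-fold or more, beside 4.95% of all genes in each direction, with a median of -0.02. IRS2, an insulin receptor substrate gene, had 0.86 (implied SE 1.75) and FOXO6 0.70 (implied SE 1.79) in the authors' deposited table. FBXO32, a ubiquitin ligase gene of muscle wasting, had -0.86 (implied SE 1.55), SESN1, a stress-induced inhibitor of mTORC1, -0.77 (implied SE 1.34) and KLHL24 -0.60 (implied SE 1.15) there. With the same trend removed, FOXO6 (0.47), SESN1 (-0.54) and KLHL24 (-0.54) were under 1.5-fold, and FOXO1 passed it at -0.61, from -0.57. Among 7 measured partners and energy stress genes DDIT4, another inhibitor of mTORC1, had -0.71 (implied SE 1.07) at 341 RPKM in the authors' deposited table. USP5 had 0.36 (implied SE 0.88), and JAK1 and NFYB had -0.25 and -0.23 there. The NF-Y subunit genes NFYA and NFYC, whose complex binds the CCAAT box, had 0.08 and 0.05 in the authors' deposited table.

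**Figure D5:**
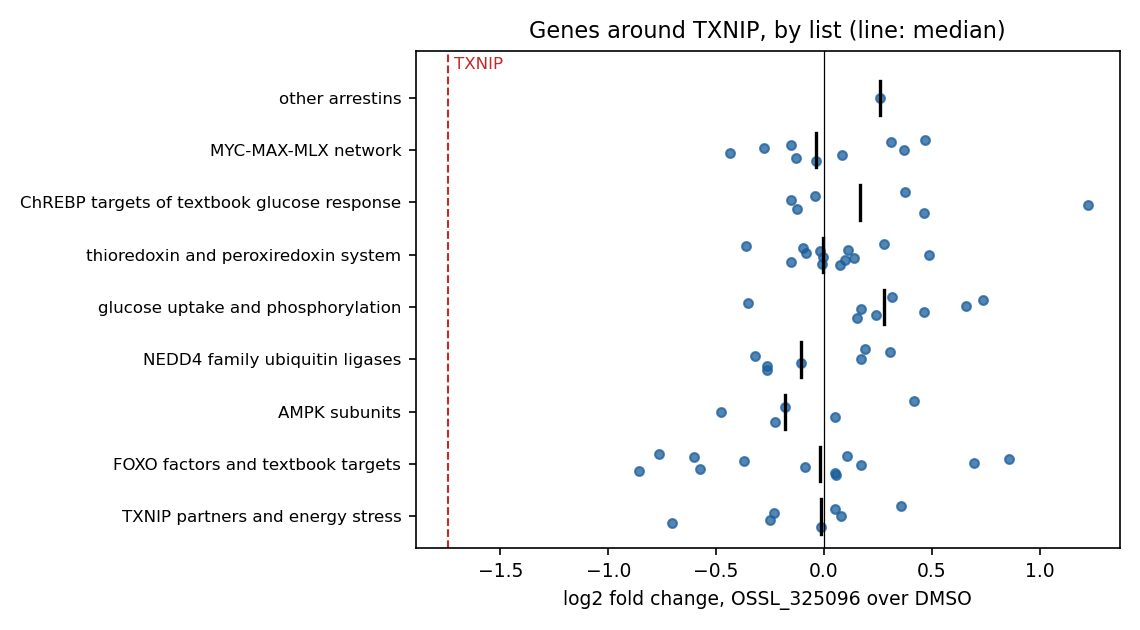
Log2 ratio of OSSL_325096 to DMSO (horizontal axis) of the 68 list genes of at least 1 RPKM, by list (points), with each list's median (black line) and the value of TXNIP (dashed red line). All 68 lie to the right of TXNIP, the lowest at -0.86. Of all genes of at least 1 RPKM, 0.177% were lower than TXNIP, which was chosen by its low value.

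The labelled cell type was checked against marker genes. Plasma cell markers were at least 1 RPKM for 9 of 9 genes found in the authors' deposited table, from 6.26 to 189 RPKM. Of these 9, 2 were above 0, where 51.0% of all genes of at least 1 RPKM were, and 7 below. Their median log2 fold change was -0.08. At least 1.5-fold lower were CD38 (-0.73), IRF4 (-0.67) and TNFRSF17 (-0.66), and at least 1.5-fold higher was SDC1 (0.60), in the authors' deposited table. Each had an implied SE of 0.91 to 1.29. Of all genes of at least 1 RPKM, 4.95% were past 1.5-fold in each direction. Their part in the values of the members was not tested. B cell, myeloid and erythroid markers were below 1 RPKM for all of 4, 5 and 3 genes. The exceptions in the remaining lists were NKG7 at 2.43, CD8A at 1.02 and the epithelial gene EPCAM at 15.8 RPKM in the authors' deposited table, with log2 fold changes of 0.03, -0.44 and -0.18. These were measured in bulk, where fewer cells of a type and less RNA per cell cannot be told apart.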

How the data were processed

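RNA from 4 libraries of KMS12PE and KMS11 cells, exposed to OSSL_325096 or DMSO, was captured with oligo(dT) beads and sequenced, per the labels' protocols. Per the series' design text, reads were mapped to hg19 and RPKM values and the comparison were made by the authors in Biomedical Genomics Workbench 5. How reads were counted, whether strand was used, how values were scaled and which model gave the p-values is unknown here. The deposited table holds 6 columns of values and 0 of single libraries. Its RPKM column is, per the file headers, the larger of the group means, and depth is unknown. The log2 fold change, the same fold as a signed score and the p-value columns were deposited by the authors; positive values were read as higher with OSSL_325096 from the table's title.

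The fit of single libraries that had been planned could not be made, and the deposited fold changes and p-values took its place. Benjamini-Hochberg adjustment and counts used 11324 genes of at least 1 RPKM. The implied standard error is the absolute log2 fold change over the normal quantile of its p-value. The trend with GC content, length and expression (polynomials of degree 3) used GENCODE 44 on GRCh37 for 98.8% of these genes, 84 of them matched by symbol, TXNIP included, and took up 15.5% of the variance. Motifs were searched on both strands of RefSeq promoter windows, which were matched to 77.5% of these genes and to all 7 members; for members with more than 1 window, the one nearest to the table's gene start was used. Python 3.11.15, pandas 2.3.3, numpy 2.4.6 and scipy 1.17.1 were used.

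The members, lists and motifs were chosen with earlier results of these data known. Named were all members, the other arrestins, MLXIPL, from each list up to 4 genes of at least 1 RPKM, taken by absolute fold change, and the 3 genes on either side of TXNIP in rank. Other named genes were chosen after their values were seen: SLC2A1, TXN, NFYA, NFYC, KLHL24, FOXO1, the neighbours, overlapping genes and markers, and the examples with the response element. The window for neighbours of TXNIP was set at 70 kb after the values were seen, so as to leave out a gene that is not reported here.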

Additional observations from a re-analysis of the deposited data

How the results depend on the processing

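No paired analysis was possible because the deposited table holds no values of single libraries, and for the same reason neither line could be left out in turn. Among the members, with no minimum on RPKM the count at least 1.5-fold lower went from 1 to 2, as did the count at least 2-fold lower, since ARRDC4 entered. At the smaller fold tried as an alternative to 1.5 the count higher went from 0 to 1, with ARRDC2. Centred on the median of all genes TXNIP stood at -1.75. After a trend with transcript GC content, length and level was removed it stood at -1.69. A minimum on RPKM cannot alter the value of a member. No member of at least 1 RPKM moved by as much as its implied SE. That error is wide beside such shifts, so this is no check of stability. Removing the trend turned the sign of ARRDC1 (from 0.17 to -0.06) and MLXIP (from 0.04 to -0.07), both within 1 implied SE of 0. Had the deposited p-values come from a t distribution with 2 degrees of freedom, the implied SE of TXNIP would be 0.61 and that of MLX 0.84. Over the 9 lists, the count at least 1.5-fold lower went from 4 to 13 with no minimum, 2 at a minimum of 5 RPKM and 10 at the smaller fold. The count at least 1.5-fold higher went from 5 to 10, 3 and 13 in the same order, and to 2 with the trend removed. At least 2-fold lower went from 0 to 5 and at least 2-fold higher from 1 to 4 with no minimum, and the latter to 0 with the trend removed. With no minimum, 18% of the 23130 genes were at least 1.5-fold lower and 12.1% at least 2-fold lower. For the other changed counts no share of all genes is given, so they describe the settings only. List medians that changed sign and are not given above did so at a minimum of 5 RPKM for the MYC and MLX network (0.14), FOXO genes (0.05) and the partners (0.02, also with no minimum), and with the trend removed for the thioredoxin system (0.07). Every statement here is limited by having 2 libraries a treatment, from different lines. The implied SE, with a median of 1.10, rests on p-values of an unknown model and is no direct measure of that limit.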

Other observations

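Windows with the forkhead motif (GTAAACA), which TXNIP shares, were described over all genes. Of 251 genes of at least 1 RPKM with the motif in the 250 bases before a start site, 153 (61.0%) were below 0, against 48.4% of the 8526 genes without it. At least 1.5-fold lower were 8.37% of the former and 4.11% of the latter. The medians were -0.08 and 0.01 on the log2 scale. The transcripts of the genes with the motif had a median GC content of 46.6%, against 50.1%, and after a trend with transcript GC content, length and level was removed the medians were -0.03 and 0.01. The E-box, which ARRDC4 and MLX hold, went with slightly higher values: 44.4% of 1032 genes with it were below 0, against 49.3% of 7745 without. The medians were 0.04 and 0.01, and 0.03 and 0.01 with the same trend removed. Median transcript GC content was 50.8% with the E-box and 49.8% without. The CCAAT box went with no such shift in the share below 0, at 48.6% of 3714 genes against 48.9% of 5063. At least 1.5-fold lower were 4.77% of the genes with it and 3.83% of those without. Genes are not independent replicates, and these shares were not tested.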
